A study of Mus musculus with 8 samples.

Results

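The retinoic acid pathway was followed through 7 of its genes across the cell types of the adult mouse heart: Aldh1a1, Aldh1a2, Aldh1a3, Rara, Rarb, Rxra and Cyp26b1. They were picked by symbol and are 7 of the 32285 genes listed in each matrix. Aldh1a1 stands first because its level in pericytes differed between libraries labelled female and male, so its pericyte values describe the choice and carry no test. The study profiled RNA of single nuclei, captured in 10x Genomics droplets, from adult hearts of female and male mice. The mice were labelled either nontransgenic (nTg) or transgenic for Ccna2 (Tg), the cyclin A2 gene, which the transgene expresses constitutively. The promoter of the transgene, the strain and the exact age are not given in the sources used here. A library was used if the columns of its matrix equalled the entries of its barcode list in number, which left 1 library with the label nTg female, 2 with Tg female and 2 with Tg male. The other 3 of the 8 libraries were not analysed here, so there was no nTg male library and no replicate of nTg.

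Retinoic acid is made from vitamin A. Retinol is first oxidised to retinal, and the retinal dehydrogenases encoded by Aldh1a1, Aldh1a2 and Aldh1a3 oxidise retinal irreversibly to retinoic acid. Retinoic acid binds the nuclear receptors RAR, which sit on DNA as pairs with RXR, and Cyp26 enzymes degrade it, so that a cell's supply depends on enzymes of both kinds. In the developing heart the epicardium, the mesothelial cover of the organ, is a known site of Aldh1a2 expression. Pericytes are the mural cells wrapped around capillaries.

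The 5 retained libraries held 25045167 to 38593706 unique molecular identifiers (UMIs, each standing for 1 captured molecule), and 5773 to 8817 nuclei per library were kept. The median depth was 2079 UMIs per nucleus in the library labelled Tg female 2, the lowest, and 2637 to 3053 in the others. Pairs of libraries shared 14 to 28 barcode strings. The sex labels matched the data, with Xist at 1282 to 1463 CPM (a gene's UMIs scaled to the total of the sum they belong to) in the libraries labelled female and at most 7.88 CPM in those labelled male. The genotype labels did not all match. In cardiomyocytes Ccna2 was at 444 CPM in the library labelled nTg female 1 and at 0.524 CPM (7 UMIs) in the library labelled Tg female 1, against 827 CPM in Tg female 2 and 232 and 143 CPM in Tg male 1 and 2. Libraries are therefore named by label. For some differences, among them Aldh1a1 in pericytes and fibroblasts and Cyp26b1 in endothelial cells, the comparison of sex labels is also given without both of these libraries. For the calls of Aldh1a1 in smooth muscle and Adh1 in fibroblasts it is not given here. Nothing in the labels says that libraries came from separate animals, so p-values measure only the spread between these libraries.

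Promoter windows are shown for the gene whose window held a match to a retinoic acid response element and for Aldh1a1, whose windows held none. Each runs from 250 bases before to 50 after a RefSeq start site (GRCm38.p6) and is written 5′ to 3′ on the gene's strand. The element searched was the direct repeat DR5, a pair of RAR half-sites in the same direction with 5 bases between them, on both strands. It occurred in 32 of 32851 windows (0.0974%). Of the windows found for 6 of the 7 genes (Aldh1a3 had none), only that of Rarb, at chr14:16575427-16575726 on the minus strand, held it. The DR5 lies at positions -53 to -37 from the start site and is in capitals.
Rarb: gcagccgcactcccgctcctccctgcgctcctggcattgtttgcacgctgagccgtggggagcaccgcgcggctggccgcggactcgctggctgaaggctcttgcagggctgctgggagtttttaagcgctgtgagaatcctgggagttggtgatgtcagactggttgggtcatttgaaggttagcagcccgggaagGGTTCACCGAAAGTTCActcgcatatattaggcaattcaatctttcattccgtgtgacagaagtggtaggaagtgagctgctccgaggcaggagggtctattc

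For comparison, the window of Cyp26a1, a retinoic acid degrading enzyme of the same family as Cyp26b1 (chr19:37697558-37697857, plus strand), held a DR5 at -32 to -16 on the opposite strand. The matches of these genes are set side by side here.
Rarb: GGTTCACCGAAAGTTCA
Cyp26a1: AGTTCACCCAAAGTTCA
Both include the half-site AGTTCA, which alone occurred in 14.0% of all windows. The windows of Aldh1a1 lie at chr19:20492333-20492632 and chr19:20601718-20602017 on the plus strand. Neither held AGGTCA (16.3% of all windows), AGTTCA, a DR5, or the repeats with spacings of 1 or 2 bases (DR1, 0.222%, and DR2, 0.268%). Both are in lower case throughout.
Aldh1a1 upstream start: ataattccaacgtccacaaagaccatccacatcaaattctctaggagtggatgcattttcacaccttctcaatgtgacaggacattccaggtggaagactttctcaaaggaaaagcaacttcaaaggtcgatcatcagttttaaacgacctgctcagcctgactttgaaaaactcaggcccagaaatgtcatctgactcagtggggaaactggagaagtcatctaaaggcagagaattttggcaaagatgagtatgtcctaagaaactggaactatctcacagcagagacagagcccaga
Aldh1a1 downstream start: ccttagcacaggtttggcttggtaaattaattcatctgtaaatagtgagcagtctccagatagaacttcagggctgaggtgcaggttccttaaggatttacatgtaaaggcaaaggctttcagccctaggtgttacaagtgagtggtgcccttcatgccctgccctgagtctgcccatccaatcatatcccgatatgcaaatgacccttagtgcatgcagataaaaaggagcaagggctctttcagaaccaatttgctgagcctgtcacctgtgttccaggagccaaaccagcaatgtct
A match is a description of letters, and no binding was measured.

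Aldh1a1 (ENSMUSG00000053279, chromosome 19, 20492715 to 20643465, plus strand, GRCm38) was at its highest in Schwann cells, mesothelial cells and fibroblasts, then in pericytes, and was low elsewhere. Cell types were named from fixed marker genes, and the 7 genes took no part in the clustering. Levels are CPM of the UMIs summed over the nuclei of 1 type in 1 library. In Schwann cells, the glia of cardiac nerves, Aldh1a1 was at 694, 706, 629, 1562 and 1966 CPM in nTg female 1, followed by Tg female 1 and 2 and then by Tg male 1 and 2, an order kept below. These sums rested on 23 to 51 nuclei per library. Both male-labelled libraries were above all 3 female-labelled ones.

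Mesothelial nuclei were fewer still, 3 to 48 per library, and gave 966, 509, 269, 1374 and 1002 CPM of Aldh1a1. Fibroblasts, the matrix-producing cells of the interstitium, gave 750, 554, 389, 1025 and 1176 CPM from 2246 to 7481 UMIs per library. Over 5 libraries the Schwann, mesothelial and fibroblast means did not differ beyond their spread. The fibroblast mean was above the pericyte mean in 5 of 5 libraries, by 514 CPM, more than the larger SD of 325 CPM.

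Below pericytes, Aldh1a1 was at 12.3, 27.8, 10.7, 44.2 and 131 CPM in smooth muscle cells, 13.3 to 23.3 CPM in endocardial cells and 3.67 to 17.7 CPM in endothelial cells. Macrophages held 3.65 to 8.57 CPM and cardiomyocytes 1.497 to 4.55 CPM. In lymphatic endothelial cells the 3 female-labelled libraries had no Aldh1a1 UMI, which allows up to 5.65 to 11.8 CPM (3 UMIs). B lymphocytes had 12 UMIs in the library labelled Tg female 1, 5 in Tg male 1 and none in the others, and neighbours in the order from B lymphocytes to endothelial cells did not differ beyond their spread.

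**Figure D1:**
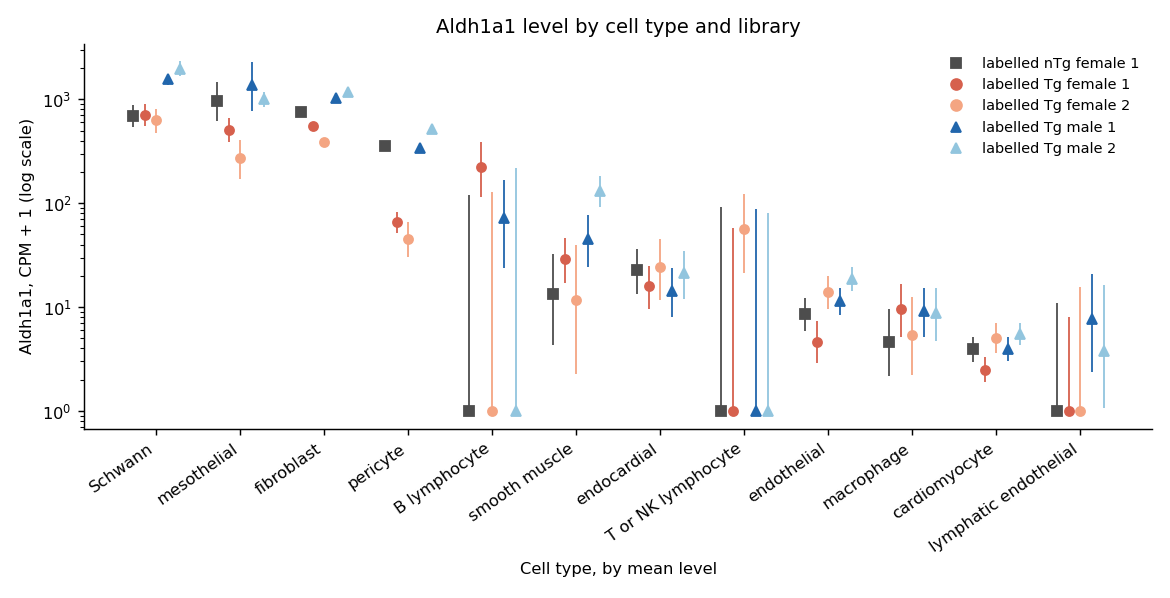
Aldh1a1 level (CPM + 1, log axis) in each named cell type, ordered by mean level, with 1 point per library. Fibroblasts sit between 389 and 1176 CPM in every library, whereas pericytes divide into 2 libraries at 44.3 and 64.5 CPM and 3 at 337 to 518 CPM.

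In pericytes the libraries labelled Tg female held far less Aldh1a1 than those labelled Tg male, whose mean was 7.86 times as high, and the library labelled nTg female lay among the males. The level was 356 CPM (343 UMIs) in the library labelled nTg female 1, 64.5 CPM (77 UMIs) in Tg female 1, 44.3 CPM (27 UMIs) in Tg female 2, 337 CPM (448 UMIs) in Tg male 1 and 518 CPM (493 UMIs) in Tg male 2. The exact 95% Poisson intervals, which cover counting error only, were 50.9 to 80.6 and 29.2 to 64.5 CPM for the libraries labelled Tg female and began at 307 CPM or above in the other 3. The Tg groups did not overlap, with means of 54.4 ± 14.3 CPM (SD, n = 2) in Tg female and 428 ± 128 CPM (SD, n = 2) in Tg male.

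The edgeR estimate for female minus male labels, with the genotype label as a covariate, was -2.93 on the log2 scale (SE 0.28). This is the contrast by which Aldh1a1 was chosen, and it is given as a description. With that covariate the library labelled nTg female 1 takes up the genotype term. Estimates of the main fit, here and below, thus compare the libraries labelled Tg female with those labelled Tg male. The estimate depended on how the nTg library entered: it was -1.42 without the genotype covariate, because the library labelled nTg female 1 then counted with the females. Without nTg female 1 and Tg female 1, where Ccna2 and label were at odds, it was -3.26, now with 1 female-labelled library. With doublet calls kept, the levels in Tg female 1 and Tg female 2 were 109.5 and 80.2 CPM and the estimate was -2.12. The low pair included the library with the lowest cardiomyocyte Ccna2, Tg female 1, and the library with the highest, Tg female 2.

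The share of nuclei with the transcript followed the same order. A UMI of Aldh1a1 was found in 40.3%, 7.85%, 5.78%, 36.9% and 45.2% of the 355, 535, 346, 534 and 409 pericyte nuclei, at median depths of 2602, 2161, 1666, 2341 and 2189 UMIs. The exact 95% binomial intervals of the libraries labelled Tg female ran from 5.72% to 10.46% and from 3.57% to 8.79%, and the lowest bound of the others was 32.8%. After each nucleus was thinned to 1000 UMIs, the shares were 26.5%, 4.49%, 4.23%, 22.5% and 29.9%, with 4 to 23 shallower nuclei left out per library. The 2 libraries labelled Tg female were again the lowest.

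Nuclei with 3 or more Aldh1a1 UMIs numbered 50, 11, 1, 52 and 67. In endothelial nuclei 0.739% to 1.63% held a UMI, and in cardiomyocytes, at median depths of 5752 to 8021 UMIs, 1.01% to 2.88%. The pericyte shares of both Tg female libraries were above all of these. Free RNA in the droplets was not measured, and its part in these shares was not tested.

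**Figure D2:**
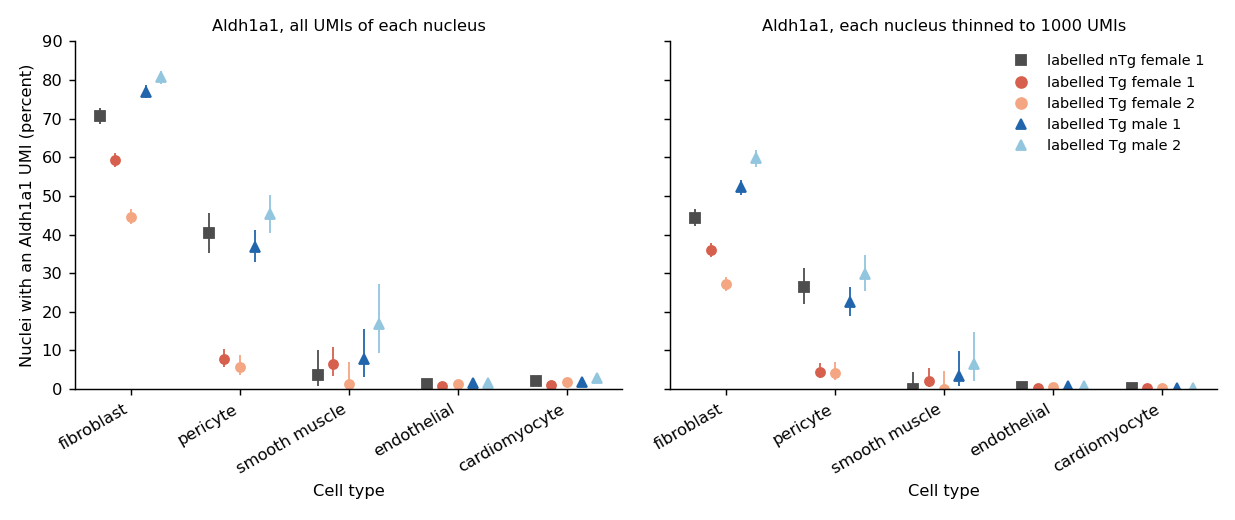
Percent of nuclei with an Aldh1a1 UMI by cell type, 1 point per library with exact binomial intervals, unthinned and thinned to 1000 UMIs per nucleus. In pericytes the libraries labelled Tg female lie at 7.85% and 5.78% unthinned, and the other 3 at 36.9% to 45.2%.

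All 10 pericyte markers, among them Pdgfrb, Rgs5 and Kcnj8, were detected in the pericyte nuclei of every library. Their summed level was 9986 to 12951 CPM, lowest in Tg female 2. The same markers gave these nuclei their name, so their presence is no separate check of it. Fibroblast markers summed to 604, 718, 1233, 561 and 565 CPM in the same nuclei. The highest sum was thus in Tg female 2, where pericyte Aldh1a1 was lowest. In pericyte nuclei with no UMI of Pdgfra, Dcn, Col1a1 or Tcf21, 195 to 426 per library, Aldh1a1 was at 334, 59.7, 47.4, 332 and 486 CPM, with the same 2 libraries lowest. Mesothelial markers were detected at no more than 3 of 8 and Schwann markers at no more than 4 of 6.

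Pericyte Aldh1a1 was also set against the fibroblasts of the same library. Pericyte Aldh1a1 was 47.5%, 11.7%, 11.4%, 32.9% and 44.1% of the fibroblast level, and endothelial Aldh1a1 was 0.662% to 3.31% of it. The fibroblast marker Dcn was in pericytes at 2.38%, 2.43%, 13.2%, 2.56% and 2.52% of its fibroblast level. In Tg female 2 the Dcn share was thus above the Aldh1a1 share. Pdgfra, another fibroblast marker, was at 0.379%, 0.392%, 1.32%, 0.718% and 0.769%, below the Aldh1a1 share in every library. The low libraries of the pericytes were thus lower relative to their own fibroblasts too.

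By a fixed rule, the 5 genes with the widest gap between the higher Tg female library and the lowest of the others were named among 6369 genes of at least 20 CPM in those others. A gap of 1 log2 unit or more was met by 9 genes (0.141%). Aldh1a1 had the widest, 2.37, but it was chosen from these same pericyte values, so its place is a description only. Next was C730002L08Rik, at 395, 76.3, 110, 478 and 356 CPM, a transcript annotated on the other strand across Aldh1a1. The strand setting of the authors' counting is not given in the sources used here. Whether reads were counted for the wrong gene of the pair was not tested. Zbtb16, a zinc-finger transcription factor, followed at 1181, 184, 371, 1210 and 1145 CPM.

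Fkbp5, a co-chaperone of steroid receptors, was at 461, 129, 151, 410 and 672 CPM. Dnah7b, a dynein heavy chain, was at 42.6, 8.38, 8.21, 34.6 and 22.1 CPM, and Ifi207, an interferon-inducible gene, at 88.3, 19.3, 24.6, 62.4 and 62.0 CPM. In all 5 the 2 libraries labelled Tg female were the lowest, as the rule required. Across cell types the likest genes, by Pearson r of log2(CPM + 1) over 60 sums of a type in a library that share libraries and depth, were Cys1 (r = 0.89), Col3a1 (r = 0.89), C730002L08Rik (r = 0.87), Rarres2 (r = 0.86) and Vgll3 (r = 0.85). Col3a1 encodes a fibrillar collagen and was itself a fibroblast marker, and Rarres2 encodes chemerin. Unlike Aldh1a1, Vgll3 was low in pericytes, at 6.996 CPM on average.

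In fibroblasts, from the same libraries in which Aldh1a1 was chosen, the difference pointed the same way. The levels given above put all 3 female-labelled libraries below both male-labelled ones. The log2 difference, which rests on the libraries labelled Tg, was -1.31 (SE 0.25). With edgeR's quasi-likelihood test it did not pass, at a Benjamini-Hochberg adjusted p of 0.0724 over all genes tested. The call turned on the library set: adjusted p was 0.00032 without Tg female 1, 0.0066 without Tg female 2 and 0.51 without Tg male 2 with edgeR, and 0.00052 (log2 -1.63) without both libraries at odds with Ccna2. DESeq2 gave 5.14e-06.

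Within fibroblasts, Aldh1a1 differed by cluster in every library. The cluster led by Kcnip1 and Necab1 held 962, 688, 536, 1294 and 1513 CPM, and the cluster led by Fgf10 and Inmt 772, 630, 479, 981 and 1155 CPM. The cluster led by Gfpt2 and Plcxd3 held 410, 377, 304, 544 and 636 CPM. In these 3 clusters each male-labelled library was above each female-labelled one. In the cluster led by Gm15684 and 4930474M22Rik (535, 383, 306, 514 and 701 CPM) the library labelled nTg female 1 was above Tg male 1. One fibroblast cluster came mostly from Tg female 2 (1137 of its 1886 nuclei, 60.3%), and without it the log2 difference was -1.24 with an adjusted p of 0.049 by edgeR.

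**Figure D3:**
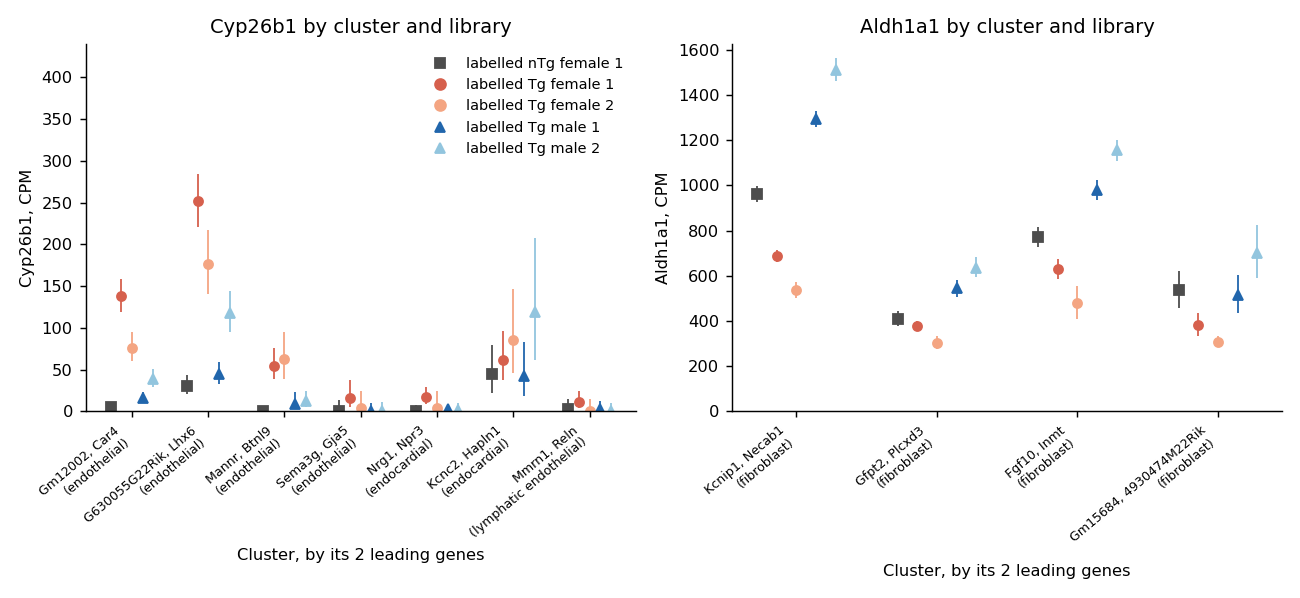
Cyp26b1 level (CPM) in each cluster of endothelial, endocardial and lymphatic endothelial nuclei (left) and Aldh1a1 level in each fibroblast cluster (right), 1 point per library with exact Poisson intervals. Endothelial Cyp26b1 runs from 5.32 to 138 CPM within the cluster led by Gm12002 and Car4.

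Vascular smooth muscle, the mural cells of larger vessels, was the other type in which Aldh1a1 was called lower under the female label. The UMIs behind the levels above numbered 4, 16, 2, 13 and 34, and both Tg female libraries were below both Tg male libraries. The log2 difference was -1.91 (SE 0.51), with an adjusted p of 0.041 by edgeR, and 0.226% of the 6643 genes tested there were called lower. The call was lost in 8 of 14 alternatives. In this and later tallies, keeping only the libraries labelled Tg and leaving out nTg female 1 are the same fit, counted as separate alternatives. Without Tg male 2, the highest library, the log2 difference was -0.997 with an edgeR adjusted p of 0.9996, and without nTg female 1 and without Tg female 1 adjusted p was 0.41 and 0.067. In endothelial cells (log2 -0.92, 95% interval -1.93 to 0.09), endocardial cells (0.05, -0.88 to 0.99), cardiomyocytes and macrophages Aldh1a1 did not pass (edgeR adjusted p of 0.66, 0.997, 0.92 and 0.95), and in the last 3 the estimate changed sign in at least 1 alternative. Whether the difference itself varied between cell types was not tested.

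Aldh1a2 (ENSMUSG00000013584, chromosome 9, 71215789 to 71296243, plus strand), the main retinoic acid enzyme of the embryo, was a mesothelial gene here. Mesothelial nuclei gave 252, 275, 316, 825 and 468 CPM, from 6, 33, 27, 9 and 72 UMIs. Its mean there was above that of fibroblasts in 5 of 5 libraries and beyond the spread. Fibroblasts were next at 11.4, 29.8, 23.9, 23.8 and 12.1 CPM. The difference by sex label did not pass (log2 0.49, SE 0.31, edgeR adjusted p of 0.72), and Tg female 2 and Tg male 1 were nearly equal.

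Macrophages held 1.46, 5.14, 13.4, 2.02 and 3.11 CPM of Aldh1a2 (log2 1.75, edgeR adjusted p of 0.61). Most of its 27 UMIs there came from the smaller macrophage cluster, led by the MHC class II genes H2-Eb1 and H2-Ab1 (4.10, 17.0, 67.4, 12.8 and 27.8 CPM), while the cluster led by F13a1 and Mrc1 was at 0 to 3.92 CPM. Pericytes gave 2 UMIs of it over all 5 libraries, against 27 to 493 UMIs of Aldh1a1 in each. Aldh1a3 (ENSMUSG00000015134, chromosome 7, 66390890 to 66427517, minus strand), the remaining retinal dehydrogenase, was highest in Schwann cells at 53.4, 40.3, 97.5, 17.8 and 26.7 CPM, from 2 to 9 UMIs. It lay at 6.50 to 10.4 CPM in endocardial, 4.26 to 9.07 CPM in endothelial and 5.04 to 7.82 CPM in fibroblast nuclei, types that did not differ beyond their spread. None of its 3 tested differences passed (edgeR adjusted p of 0.76 in endothelial cells, 0.83 in fibroblasts and 0.92 in cardiomyocytes).

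**Figure D4:**
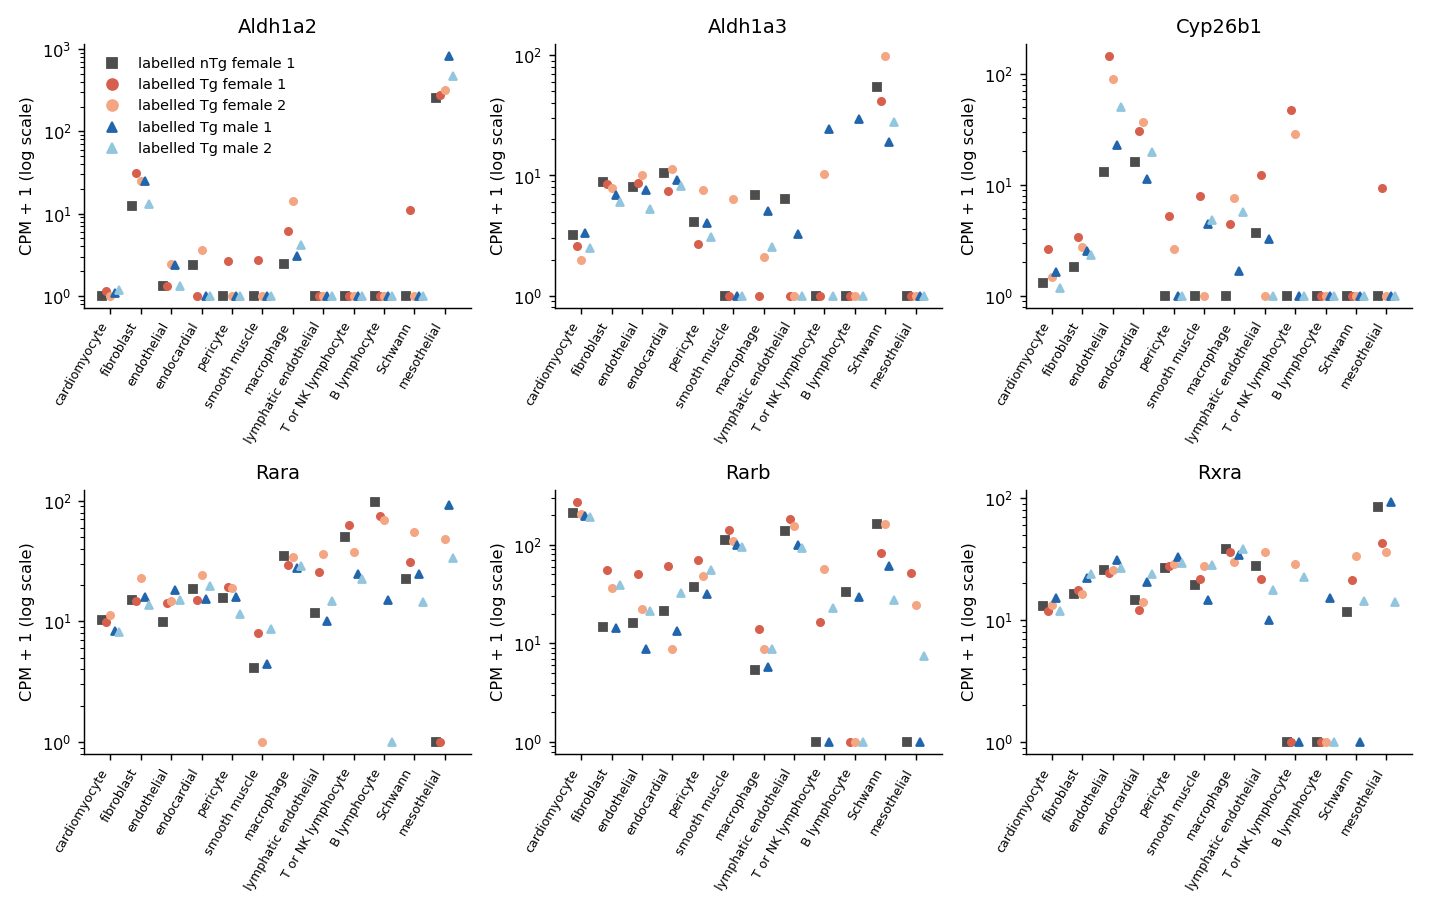
Levels (CPM + 1, log axis) of the other 6 genes in each named cell type, 1 point per library. Aldh1a2 peaks in mesothelial cells, Rarb in cardiomyocytes (192 to 268 CPM) and Cyp26b1 in endothelial cells.

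Among the receptors, Rarb (ENSMUSG00000017491, chromosome 14, 16430839 to 16819156, minus strand), whose promoter window is printed above, was the one with a clear peak by cell type. Cardiomyocytes held 207, 268, 205, 193 and 192 CPM, and the mean there was above that of lymphatic endothelial cells in 5 of 5 libraries. A UMI of Rarb was found in 60.9% to 72.3% of cardiomyocyte nuclei, and in 15.5% to 22.3% after thinning to 1000 UMIs. The difference by sex label there did not pass (log2 0.26, 95% interval -0.15 to 0.66, edgeR adjusted p of 0.90). Rarb overlaps Top2b on the other strand.

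Lymphatic endothelial cells held 136, 179, 153, 99.2 and 91.4 CPM of Rarb. All 3 female-labelled libraries were above both male-labelled ones there, but the difference did not pass (log2 0.78, SE 0.28, edgeR adjusted p of 0.43). Smooth muscle gave 111, 139, 107, 98.6 and 92.7 CPM (edgeR adjusted p of 0.997). Neighbours in the order from lymphatic endothelial cells through smooth muscle and Schwann cells to pericytes did not differ beyond their spread.

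In pericytes Rarb was at 36.4, 68.7, 47.6, 30.8 and 54.7 CPM, and the Tg groups overlapped (log2 0.51, 95% interval -0.08 to 1.11, edgeR adjusted p of 0.87). Fibroblasts gave 13.5, 54.0, 35.6, 13.1 and 38.1 CPM (edgeR adjusted p of 0.67), and endothelial cells 14.96, 49.8, 21.5, 7.73 and 20.3 CPM. In both types the library labelled Tg female 1 was the highest and the one labelled Tg male 1 the lowest. The endothelial difference (log2 1.34, SE 0.47) did not pass with edgeR (adjusted p of 0.40) but passed in 3 of 15 alternatives, among them that without Tg male 2 (2.53e-05). Without Tg male 2 the fibroblast difference passed as well (edgeR adjusted p of 0.019).

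Rara (ENSMUSG00000037992, chromosome 11, 98927818 to 98974942, plus strand), the broadly expressed receptor, was at 33.6, 28.3, 33.4, 27.0 and 27.99 CPM in macrophages. Its highest means were in lymphocytes, from at most 4 UMIs per library. Fibroblasts held 12.8 to 22.0 CPM and cardiomyocytes 7.24 to 10.4 CPM. In pericytes it was at 14.5, 18.4, 18.1, 15.05 and 10.52 CPM, with both Tg female libraries above both Tg male ones, and did not pass (log2 0.49, 95% interval -0.36 to 1.33, edgeR adjusted p of 0.95).

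Rxra (ENSMUSG00000015846, chromosome 2, 27676440 to 27762957, plus strand), the partner receptor, was at similar levels across libraries in macrophages and in pericytes. Macrophages held 37.2, 35.1, 28.9, 33.1 and 37.3 CPM, above pericytes in 5 of 5 libraries and beyond the spread. Pericytes held 26.0, 26.8, 27.9, 31.6 and 28.4 CPM. The pericyte difference by sex label was -0.14 on the log2 scale, with a 95% interval of -0.75 to 0.46 (edgeR adjusted p of 0.99). Fibroblast Rxra (15.3, 16.8, 15.4, 21.1 and 23.0 CPM) was lower in every female-labelled library than in the male-labelled ones, and missed the threshold (log2 -0.54, SE 0.20, edgeR adjusted p of 0.41).

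Cyp26b1 (ENSMUSG00000063415, chromosome 6, 84571414 to 84593908, minus strand), which degrades retinoic acid, had its highest mean in endothelial cells, where it spread widely between libraries. That mean did not exceed the endocardial one beyond the spread, and in nTg female 1 the endocardial level was the higher. Endothelial cells held 12.1 CPM (38 UMIs), 144 CPM (472 UMIs), 89.7 CPM (188 UMIs), 21.8 CPM (79 UMIs) and 49.1 CPM (150 UMIs). Both libraries labelled Tg female were above both labelled Tg male, while the library labelled nTg female 1 was below all 4. The log2 difference of 1.68 (SE 0.36) did not pass with edgeR (adjusted p of 0.16). It passed in 5 of 15 alternatives, over which adjusted p ran from 3.36e-12 to 0.86.

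With edgeR the adjusted p for endothelial Cyp26b1 was 0.016 without Tg female 2, 0.030 without Tg male 1 and 8.92e-09 without Tg male 2. Without the 2 libraries at odds with Ccna2, the log2 difference was 1.26 and adjusted p 0.051. A Cyp26b1 UMI was found in 2.17%, 18.5%, 10.9%, 4.20% and 7.59% of endothelial nuclei (exact 95% intervals of 1.44% to 3.12%, 16.6% to 20.5%, 9.20% to 12.9%, 3.27% to 5.30% and 6.25% to 9.11%), and in 1.33%, 11.3%, 5.87%, 1.57% and 4.45% after thinning to 1000 UMIs. In cardiomyocytes, which are deeper, 0.169% to 0.907% held one.

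Both Tg female libraries were above both Tg male libraries in each endothelial cluster. In that led by Sema3g and Gja5 this order rested on only 5 UMIs in Tg female 1 and 1 UMI in Tg female 2. The cluster led by G630055G22Rik and Lhx6 had the highest levels, 30.8, 251, 176, 44.1 and 118 CPM, and the large cluster led by Gm12002 and Car4, a capillary gene, had 5.32, 138, 76.2, 16.0 and 38.6 CPM. The cluster led by Mannr and Btnl9 had no UMI in the library labelled nTg female 1, which allows up to 5.59 CPM (3 UMIs), and 54.7, 62.2, 9.07 and 11.8 CPM in the others. The cluster led by Sema3g and Gja5, which are arterial genes, was near 0 outside the library labelled Tg female 1 (16.1 CPM). It held 1 UMI in Tg female 2 and none in the remaining libraries. Endocardial cells gave 14.9, 29.7, 36.2, 10.2 and 18.7 CPM in all, with both Tg female libraries above both Tg male ones (log2 1.13, SE 0.43, edgeR adjusted p of 0.58). Most of these UMIs lay in the endocardial cluster led by Kcnc2 and Hapln1, at 44.6, 61.7, 85.7, 42.1 and 119 CPM, where Tg male 2 was above both Tg female libraries. That cluster held 68, 102, 67, 56 and 32 nuclei, and the endocardial cluster led by Nrg1 and Npr3, with 150, 279, 104, 274 and 208 nuclei, was at 0 to 16.9 CPM.

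**Figure D5:**
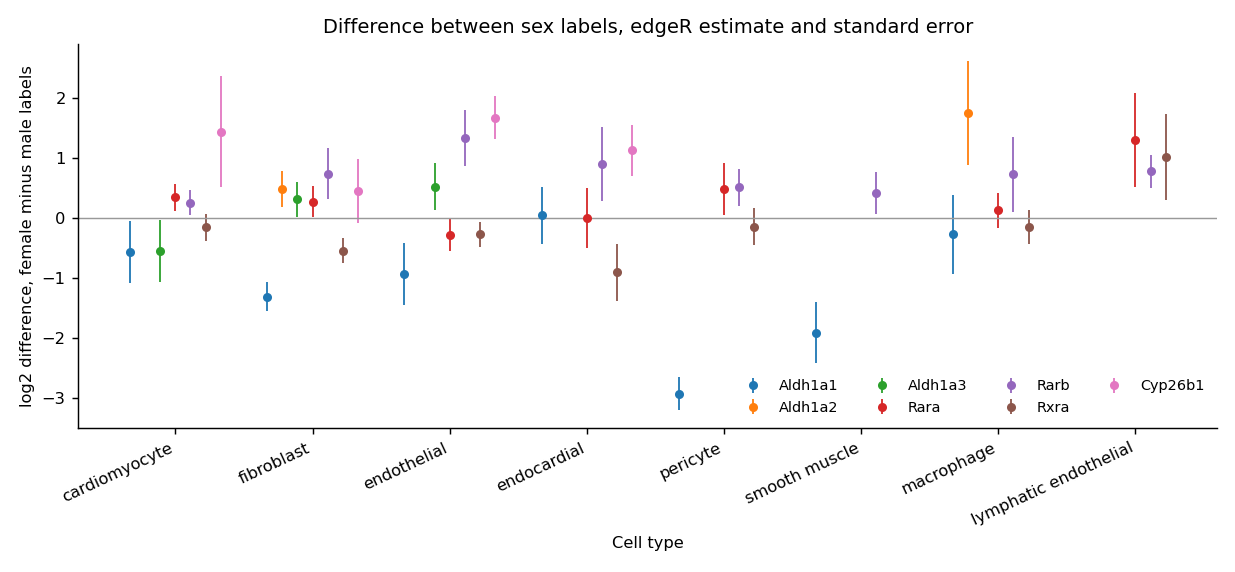
Difference between sex labels (female minus male, log2) for each of the 7 genes in each tested cell type, as the edgeR estimate with its standard error. Aldh1a1 in pericytes lies lowest at -2.93, and Cyp26b1 in endothelial cells is at 1.68.

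Over the 8 cell types with at least 50 nuclei in every library, the 7 genes gave 38 pairs of gene and type that could be tested. None was called higher under the female label and 2 were called lower, Aldh1a1 in pericytes, which chose the gene and was not called without the genotype covariate, and Aldh1a1 in smooth muscle. At an unadjusted p under 0.05 there were 8, Aldh1a1 in pericytes among them, beside 7.69% of all pairs of a gene and a type tested. In pericytes 4 of the 7 genes passed the filter on low counts, and only Aldh1a1 was called (0.181% of 11022 genes were). Since this contrast chose Aldh1a1, its call cannot be weighed against that share. In fibroblasts 7 were tested and none was called (0.532% of 15970 genes), in endothelial cells none of 6 (0.165% of 13964) and in cardiomyocytes none of 6 (0.0245% of 16306).

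None was called of 5 in endocardial cells (0.247% of 10506), of 5 in macrophages (0.294% of 11903) or of 3 in lymphatic endothelial cells (0.448% of 8265), and 1 of 2 in smooth muscle (0.994% of 6643). The median log2 difference of the tested members was 0.17 in pericytes against 0.01 over all genes there, and 0.31 against 0.02 in fibroblasts. In fibroblasts 3 members (Aldh1a2, Aldh1a3 and Cyp26b1) had both Tg female libraries above both Tg male ones, as did 28.9% of all genes tested, and 2 (Aldh1a1 and Rxra) had both below, as did 12.7%. In endothelial cells 3 members did (Aldh1a3, Cyp26b1 and Rarb), beside 25.7% of all genes, and 2 (Rara and Rxra) had both below, beside 14.7%. The 2 members with both Tg female libraries below in pericytes, Aldh1a1 and Rxra, stand beside 17.9%, and the 1 with both above, Rara, beside 17.3%.

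The other retinoid genes, a list of 46, were tested in 179 pairs of gene and type, of which 1 was called lower under the female label and none higher. An unadjusted p under 0.05 was met by 24 of these pairs, beside 7.69% of all pairs of a gene and a type tested. Pairs share genes and libraries, and the list was not tested against that share. The called gene was Adh1 (chromosome 3, 138260991 to 138290698), an alcohol dehydrogenase that oxidises retinol, in fibroblasts at 7.82, 4.19, 4.84, 11.8 and 18.0 CPM. All 3 female-labelled libraries were below both male-labelled ones. The log2 difference, which rests on the libraries labelled Tg, was -1.81 (SE 0.31, edgeR adjusted p of 0.049, beside 0.457% of all genes called lower there). The call was lost in 6 of 16 alternatives, among them those without nTg female 1 (0.062) and without Tg male 2 (0.12).

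Adh1 was higher in endothelial and endocardial cells than in fibroblasts, but not in lymphatic endothelial cells, where it had at most 2 UMIs per library. Endothelial cells held 41.4, 17.4, 52.0, 85.5 and 99.6 CPM (log2 -1.54, edgeR adjusted p of 0.21), and all 3 female-labelled libraries were below the males. Endocardial cells held 114, 37.1, 44.0, 91.1 and 96.5 CPM, where only the libraries labelled Tg female were low (log2 -1.30, edgeR adjusted p of 0.087). In pericytes Adh1 had at most 3 UMIs per library. These differences passed in 7 and 6 of 15 alternatives, and without Tg female 2 with edgeR adjusted p was 0.00044 and 0.00054. Adh1 overlaps Gm16559 on the other strand.

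Of the genes upstream of retinal, Rdh5, a retinol dehydrogenase, was at its highest in pericytes, at 147, 168, 189, 156 and 156 CPM, without the split seen for Aldh1a1. Dhrs3, which reduces retinal back to retinol and is itself induced by retinoic acid, was highest in macrophages (210 to 279 CPM). In fibroblasts it was at 18.7, 35.6, 31.5, 17.5 and 21.7 CPM (log2 0.69, edgeR adjusted p of 0.26).

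Stra6, the retinol importer, was at 12.2, 15.8, 15.5, 5.12 and 5.76 CPM in endocardial cells. Aldh2, the mitochondrial aldehyde dehydrogenase, was at 109, 87.4, 62.0, 109 and 127 CPM in endothelial cells (log2 -0.72, edgeR adjusted p of 0.29). Rxrg, the third RXR, was highest in Schwann cells (107 to 252 CPM) and next in cardiomyocytes (33.4 to 47.6 CPM). The cofactor Ncor1, a corepressor of RAR, was at 391 to 470 CPM in pericytes. Aldh1a7, the neighbour and near copy of Aldh1a1, was near 0 in all types but Schwann cells (0 to 43.4 CPM), although reads shared by near-identical genes could be lost or split in the authors' counting. In pericytes 21 of the 46 were tested and none was called.

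Further genes of the list that reached 10 CPM on average in some type follow by role, in the type or types with the most UMIs. Among the enzymes that interconvert retinol and retinal, Rdh14 was at 25.1 to 37.7 CPM and Rdh13 at 20.3 to 22.8 CPM in cardiomyocytes, where Dhrs4 was at 27.9 to 38.3 CPM. Rdh10, which supplies retinal in the embryo, was at 20.9 to 25.2 CPM in fibroblasts, and Adh5 was at 12.8 to 16.6 CPM in endothelial cells. Rdh12 was at 3.93 to 26.7 CPM in lymphatic endothelial cells, with both Tg female libraries below both Tg male ones. Rdh11, Bco1, which splits beta-carotene to retinal, and the target Rarres1 reached that mean only in lymphocytes or mesothelial cells, from 1 to 3 UMIs over all libraries. Bco2, the other carotenoid-cleaving enzyme, was at 17.5 to 33.4 CPM in macrophages.

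Dgat1, which can esterify retinol, was highest in pericytes at 32.2 to 46.0 CPM. Fabp5, a fatty acid binding protein that can also carry retinoic acid, was highest in endocardial cells at 72.5 to 168.9 CPM. Of the receptors, Rarg was at 53.0 to 86.8 CPM and Rxrb at 19.1 to 23.9 CPM in endothelial cells. Among the cofactors, Nrip1 was at 217.2 to 359.7 CPM in fibroblasts. Nrip1, itself inducible by retinoic acid, was lower in both Tg female libraries than in both Tg male ones there and was not called.

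The coactivators Ncoa2 (254.8 to 404.6 CPM) and Ncoa3 (370.0 to 450.6 CPM) had their highest levels among the tested types in macrophages. Ncoa1 in macrophages, at 524, 391, 314, 590 and 668 CPM, was lower in every female-labelled library and did not pass (log2 -0.86, edgeR adjusted p of 0.16). Of the targets, Tgm2, a transglutaminase, was at 147.0 to 205.1 CPM in lymphatic endothelial cells. Rarres2, for which the types are not those with the most UMIs, was at 609 to 4032 CPM in mesothelial cells and 108.3 to 150.8 CPM in pericytes. Its mean was 178 CPM in Schwann cells and 102 CPM in fibroblasts. Of the other aldehyde dehydrogenases, Aldh1l2 was at 10.2 to 43.0 CPM in smooth muscle. Aldh1l1, a folate enzyme, was at 3.33, 4.57, 3.41, 10.8 and 9.09 CPM in cardiomyocytes, with the male-labelled libraries higher, and did not pass (log2 -1.32, edgeR adjusted p of 0.38).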

How the data were processed

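Nuclear RNA of 5 heart libraries was analysed. The deposited values are raw UMI counts for each barcode and gene, not normalized by the authors, made with Cell Ranger 7.0.0 per the file headers. The submitters' processing notes name mm10. Counting of introns and strand is not given in the sources used here. The 3 matrices identical to those of other libraries, with column counts unlike their own barcode lists, were not analysed here.

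Nuclei needed at least 200 genes and less than 5% mitochondrial UMIs. Doublets were called with scrublet in scanpy 1.11.5 (expected rate 6%) and removed (7.63% to 11.4%). The caller's own threshold marked none in the library labelled Tg female 2, which took the median threshold of the others, a choice made after seeing the data. Nuclei were clustered on 2000 variable genes and 30 components (15 neighbours, Leiden resolution 1), without the members, other retinoid genes, sex genes and Ccna2, and clusters were named from a list of markers. Members are described in all 12 named types.

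UMIs were summed per library and type and tested with edgeR 4.0.16 (R 4.3.3; quasi-likelihood, TMM, filterByExpr, sex label plus genotype label), with Benjamini-Hochberg adjustment over all genes and a threshold of 0.05. All alternatives, including DESeq2 1.42.0, are in the closing section. The scripts were tested on simulated data. Gene positions are from the GENCODE annotation of GRCm38, promoters from RefSeq (GRCm38.p6).

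The members and lists were chosen with earlier results of these data known. Named are all 7 members in every type, list genes reaching 10 CPM on average in some type (32 of 46) or called, apart from some not reported here, Aldh1a7, and the 5 genes most like Aldh1a1 by each of the measures given.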

Additional observations from a re-analysis of the deposited data

Results flagged for a closer look

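A cluster led by Dkk3 and Cyp2e1 took no cell type name and entered no comparison, yet it held members of the pathway. Its 574 nuclei (111 in nTg female 1, 193 and 139 in Tg female 1 and 2, and 90 and 41 in Tg male 1 and 2) gave Aldh1a1 at 847.5, 771.0, 605.2, 858.8 and 773.7 CPM. These levels are of the order of those in fibroblasts, in every library above the 3 UMIs that a count of 0 allows. Rarb in the same nuclei was at 91.9, 187, 104, 57.7 and 198 CPM. The identity of these nuclei was not tested.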

How the results depend on the processing

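Of 45 gene differences by sex label recomputed under the alternatives, all members' tested pairs among them, 36 kept their direction throughout and 9 reversed in some, none of them called. Log2 differences that reversed were those of Aldh1a1 in cardiomyocytes (0.048 from the libraries not at odds with Ccna2, -1.33 to 0.049 without 1 library), endocardial cells (-0.73 with doublet calls kept, -0.25 to 0.44 without 1 library) and macrophages (-0.87 to 0.11), of Rara in endocardial cells (-0.023 with no filter, -0.28 to 0.44), fibroblasts (-0.061 to 0.54) and macrophages (-0.12 with doublet calls kept), of Rarb in endocardial cells (-1.49 from the libraries not at odds, -1.48 to 1.63) and of Rxra in cardiomyocytes (-0.31 to 0.026) and macrophages (-0.33 to 0.0043). Of 51 recomputed mean levels of members, 51 moved by less than 1 SD (TMM-scaled CPM could be had only for the 8 tested types). Leaving out 1 library cannot move a mean by that much, so those values are no check. The SDs were also wide. Mesothelial Aldh1a2 went from 427 to 283 CPM with doublet calls kept, against an SD of 238 CPM. The number of genes called in pericytes, 20, was 90 with no filter, 6 with no genotype covariate, and 497 from the 3 libraries in which Ccna2 and label were not at odds, a setting chosen after seeing the data, as was leaving out the fibroblast cluster mostly of 1 library. Leaving out 1 library gave 16 (without nTg female 1) to 495 (without Tg female 1). Over the other 7 types the 276 calls became 468 with DESeq2, 1798 with no filter, 140 with at least 10 UMIs in every library, 173 with only the Tg libraries, 55 with no genotype covariate and 2604 from the libraries not at odds, and 173 to 2646 without 1 library. Where an arm was left with 1 library, that library was assumed to vary like the others. In smooth muscle DESeq2 called 4 genes against 66. The replicate numbers were not shown to pair libraries, with 2 pairs and correlations of deviations from -0.04 to 0.12 over the types. With the replicate block, pericytes had 80 calls and the other types 1097. Aldh1a1 in pericytes was at 109.5 and 80.2 CPM in Tg female 1 and Tg female 2 with doublet calls kept. Thinning to 500 UMIs gave shares of 13.5% in nTg female 1, 2.43% in Tg female 1, and 12.5% and 19.3% in the males, where thinning to 1000 gave 26.5%, 4.49%, 22.5% and 29.9%. Thinning to fewer UMIs lowers such shares by design. The cause of the other changes was not tested. Depth limits the types with few nuclei: mesothelial, Schwann and lymphocyte levels rest on few UMIs.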
